A study of Mus musculus with 12 samples.

Results

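Gene expression in the atrioventricular canal (AVC) was compared with that in the ventricle (LV) of the mouse heart at embryonic day 10 (E10), across 19057 genes. The comparison took the 3 arrays titled AVC at E10 and the 3 titled LV at E10, which were 6 of the 12 arrays collected. The other 6 were the same tissues at embryonic day 9 (E9) and served as a second age. The labels describe the LV samples as the primary ventricle, dissected like the AVC from embryos, and name no treatment. Total RNA was labelled with biotin and hybridised to Illumina Mouse WG-6 v2 bead arrays. The sources used here give no genotype, strain or sex and no number of embryos per sample, and do not state whether the 3 replicates of a group were separate dissections. The p-values therefore rest on a spread between samples that may be technical.

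The AVC is the segment between the atria and the ventricle where the valves begin. Its myocardium stays slowly conducting and unlike chamber muscle because the T-box repressors Tbx2 and Tbx3 hold down chamber genes such as Nppa there. This myocardium also secretes a hyaluronan-rich matrix, the cardiac jelly, together with BMP and TGF-beta ligands. Under these signals, and with Notch and Wnt activity, endocardial cells lining the AVC loosen, move into the jelly and become mesenchyme, so that the jelly swellings turn into cellular cushions. At E10 this transition is under way in the AVC and not in the ventricle, where the endocardium stays epithelial and the muscle forms trabeculae.

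Expression is given as the deposited intensity, a linear brightness whose mean over all probes was 386 on every array. A log2 difference is the mean log2 intensity of the AVC arrays minus that of the LV arrays, after values under 1 were set to 1. A gene was called when its limma p, adjusted by the Benjamini-Hochberg method over all 19057 genes, was under 0.05. A gene was taken as above background where it exceeded the size of the array's most negative value, which lay between 22.4 and 29.6 on the 6 arrays. Of the 6 arrays, replicate 1 of LV E10 stood apart. Its mean correlation across genes with its own group was 0.933, and the array it resembled most was an LV array of E9 (0.969). Replicate 1 of AVC E10 was likewise closest to an AVC array of E9 (0.979). Both were kept in the fit, and calls that were lost without the LV array are given both ways.

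On the deposited scale most genes that differed were higher in the AVC. In all 438 genes were called, which was 2.30% of those tested, with 392 higher (2.06%) and 46 lower (0.241%) in the AVC. The intensities of the 3 AVC arrays did not overlap those of the 3 LV arrays for any of the 438, against 18.1% of all genes with no overlap (14.4% with the AVC above and 3.72% with the LV above). Calls were made on these same values. For called genes, here and below, the lack of overlap is therefore a description and adds no support. The difference reached 2-fold for 259 of the called genes and 4-fold for 127. At an unadjusted limma p under 0.05 there were 2650 of the 19057 genes. Without replicate 1 of LV E10 the call count was 730, with 563 higher and 167 lower, and 327 of the 438 were among them. Without replicate 1 of both tissues it was 690. Leaving out replicate 3, 2 or 1 of AVC E10 gave 97, 172 and 286 calls, and leaving out replicate 2 or 3 of LV E10 gave 141 and 295.

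The excess of higher over lower genes depended on how the arrays were scaled. For the 8682 genes that all 6 arrays placed above background, the median log2 difference was 0.17, and the 75th percentile of intensity was 114 to 122 on the AVC arrays against 93.6 to 109 on the LV arrays. Quantile normalization brought this median to 0.01 and left 186 higher and 82 lower calls. Scaling to a common 75th percentile brought it to -0.09, with 148 higher and 135 lower calls. The share of calls that were higher was thus 89.5%, 69.4% and 52.3% under the 3 scalings. Of 111 genes named by rule or as called list members, 79 kept their call with the 75th percentile scaling, 64 with the mean of all probes of a gene, 28 to 92 with 1 array left out (28 without replicate 3 of AVC E10 and 39 without replicate 2 of LV E10) and 21 when only the 6 arrays of E10 were fitted. Calls below that did not pass with the 75th percentile scaling are named with their adjusted p.

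**Figure D1:**
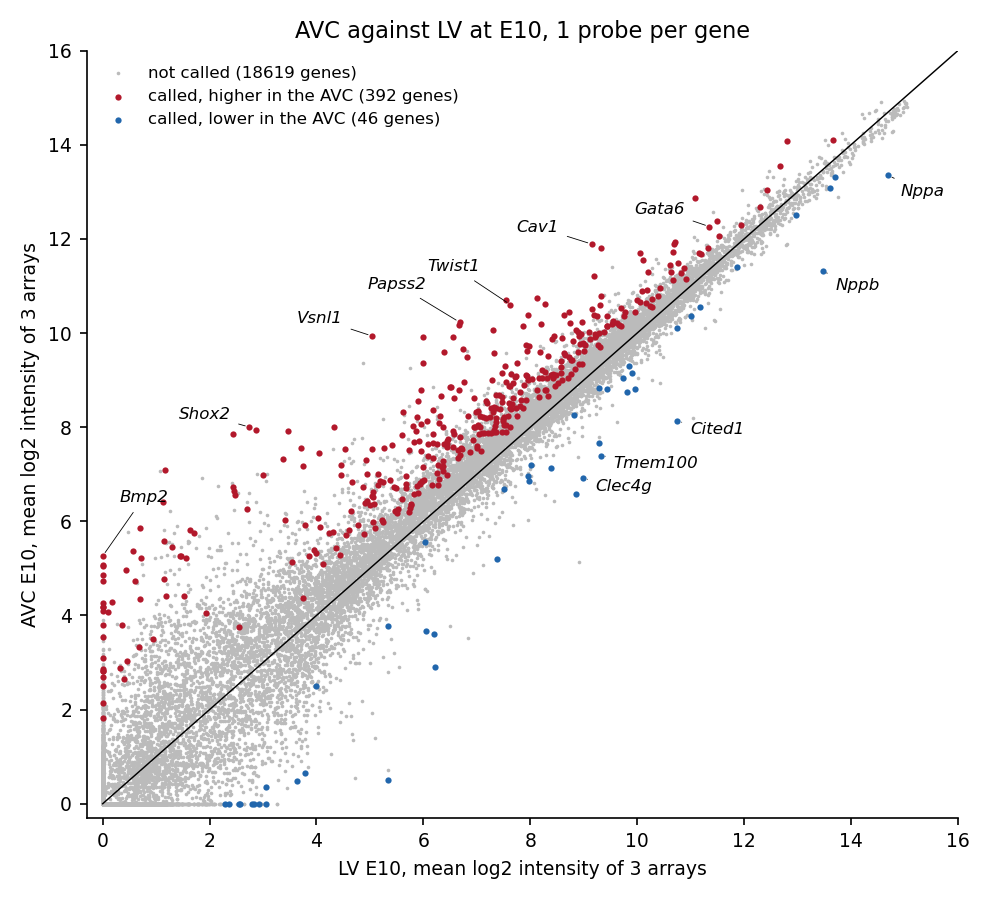
Mean log2 intensity of 19057 genes on the 3 LV arrays (horizontal axis) and on the 3 AVC arrays (vertical axis) at E10, with values under 1 set to 1. The line marks equal levels. The 392 genes called higher in the AVC (red) lie above the line, and the 46 called lower (blue) include Nppa and Nppb at the bright end.

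The dissection was first checked against marker genes. AVC regulators were bright on the AVC arrays and dim on the LV arrays. Tbx2 had intensities of 212, 165 and 191 in the AVC and 33.6, 12.7 and 5.23 in the LV, and Tbx3 1003, 570.0 and 814 in the AVC and 186, 57.5 and 54.0 in the LV. Muscle and endocardium were present in both tissues, with alpha cardiac actin Actc1 at 27051, 28975 and 26456 in the AVC and 32668, 29976 and 24726 in the LV and the endothelial adhesion gene Pecam1 at 558, 598 and 470.5 in the AVC and 452, 487 and 438 in the LV. The chamber transcription factor Irx2 was bright on all LV arrays at 307, 304 and 314, but also above background on the AVC arrays at 139.8, 51.8 and 116. It was not called (adjusted p = 0.167). Irx4, another chamber marker, read 285, 67.1 and 149.9 in the AVC and 157, 271 and 260 in the LV (adjusted p = 0.609). Of the 5 chamber markers Nppa and Nppb were called, and Irx2, Irx4 and Gja5 were not. Of 5 markers of endoderm or liver, Alb, Foxa2 and Epcam were above background on none of the 6 arrays. The other two followed the array and not the tissue, since Afp read 17.1, 412 and 319 in the AVC and 527, 114 and 9.71 in the LV and Ttr 88.0, 542 and 235 in the AVC and 1826, 314 and 79.6 in the LV. Of the atrial and sinus venosus markers Sln was bright only on AVC replicates 2 and 3, at 14.3, 541 and 313 over the AVC arrays and 8.97, 1.05 and -4.48 over the LV arrays. How much atrial or foregut tissue a sample held was not tested. In bulk tissue, fewer cells of a type and less RNA per cell cannot be told apart.

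**Figure D2:**
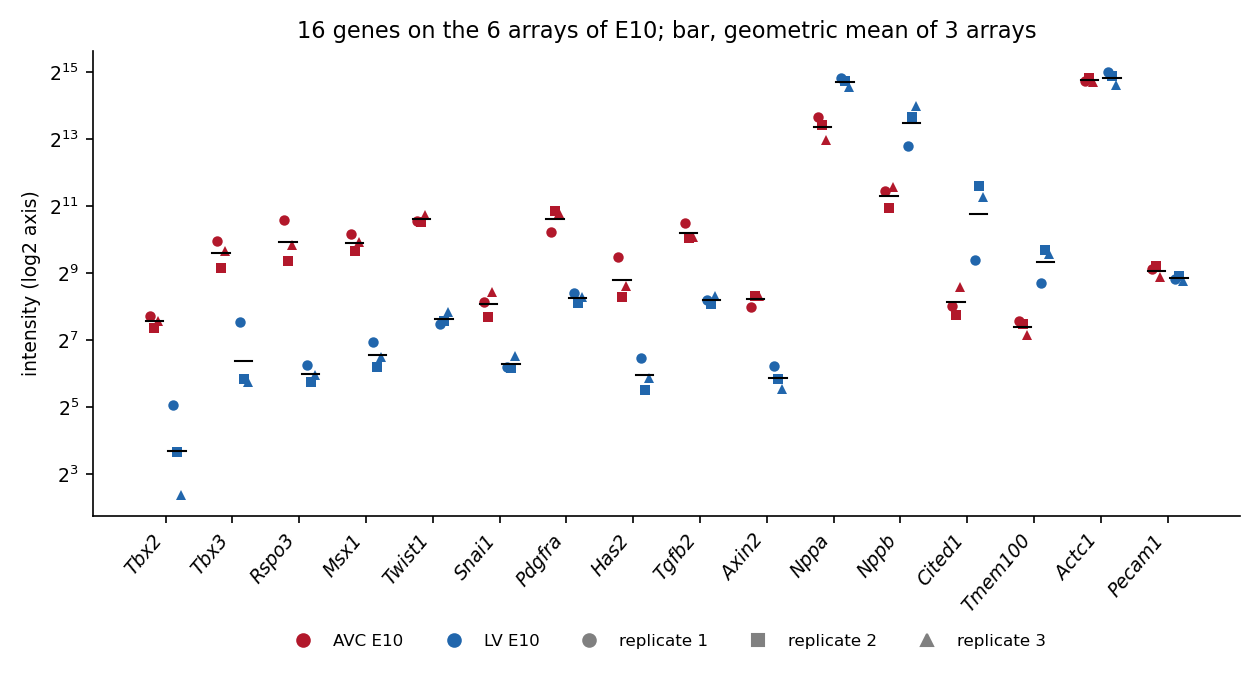
Intensity on a log2 axis of 16 genes on the 3 AVC arrays (red) and the 3 LV arrays (blue) of E10. Symbols mark the replicate and bars the geometric mean. The AVC and cushion genes from Tbx2 to Axin2 lie higher on all 3 AVC arrays, Nppa, Nppb, Cited1 and Tmem100 lie lower, and Actc1 overlaps between the tissues.

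Of 13 measured genes of AVC myocardium 6 rose, none fell and 7 did not pass, with a median log2 difference of 1.44 against 0.07 over all genes (0.83 against 0 with a floor of 32). Rspo3, a secreted amplifier of Wnt signalling, had intensities of 1524, 656 and 911 in the AVC and 77.4, 53.9 and 62.0 in the LV (log2 difference 3.93 ± 0.61 SE, adjusted p = 0.0196). Tbx2, which represses chamber genes, was also higher (log2 difference 3.85 ± 0.65 SE, adjusted p = 0.026). Only 1 of its 3 LV values was above background, so the size rests on the floor, and it was 2.54 with a floor of 32 and 2.06, not past the test, as the mean of both Tbx2 probes (adjusted p = 0.257). Its relative Tbx3 was 9.31-fold higher (log2 difference 3.22 ± 0.57 SE, adjusted p = 0.0304). The highest LV value of Tbx3 and of Tbx2 was on replicate 1 of LV E10, and still lay below every AVC array. Bmp2, the ligand that starts the endocardial transition, read 68.9, 27.5 and 29.95 on the AVC arrays and below background on the LV arrays, so that it was at least 1.54-fold higher (adjusted p = 0.00617). Its values on AVC replicates 2 and 3 lay little above their background limits of 26.7 and 24.1. The fitted size and p of Bmp2 rest on the floor. With a floor of 32 the difference was 0.37, and the highest adjusted p among the alternative settings was 0.924. Tgfb2, a TGF-beta ligand of the AVC, read 1456, 1051 and 1070.5 in the AVC and 297, 272 and 319 in the LV. Gjc1, the connexin of slowly conducting muscle, showed the smallest rise of the 6 at 1.69-fold, with a mean over its probes of 0.37 (adjusted p = 0.915). Its call was lost with the 75th percentile scaling (adjusted p = 0.142) and without replicate 1 of LV E10 (0.0729).

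Among the members that did not pass, Tbx20, a T-box factor needed for cushion growth, read 299, 207 and 207 in the AVC and 159, 61.3 and 65.7 in the LV (adjusted p = 0.0898). Tbx5, its relative, read 66.7, 61.0 and 62.4 in the AVC and 39.5, 30.4 and 36.0 in the LV (adjusted p = 0.606). The arrays of the tissues were apart for both. The pacemaker channel gene Hcn4 was not above background in either tissue. The low-voltage calcium channel gene Cacna1g read 12.5, 50.7 and 51.7 in the AVC and 11.5, 3.84 and 2.53 in the LV, with replicate 1 of the AVC at the level of the LV arrays.

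Of the chamber genes the natriuretic peptide genes and Cited1 were lower in the AVC. Of 23 measured members 3 fell, none rose and 20 did not pass, with a median of -0.89. At an unadjusted limma p under 0.05 there were 10 lower and 2 higher, beside 2650 of all 19057 genes. With only the E10 arrays fitted 0 were called. Nppa, the atrial natriuretic peptide gene of chamber muscle, read 12894, 10970.0 and 8062 in the AVC and 28752, 27200.2 and 24015 in the LV, a 2.54-fold lower level (log2 difference -1.35 ± 0.21 SE, adjusted p = 0.0223). Nppb, the related B-type peptide gene, read 2777, 1972 and 3002 in the AVC and 7094, 12926 and 16079 in the LV (log2 difference -2.16 ± 0.31 SE, adjusted p = 0.0149). For both peptides every AVC array lay below every LV array. Cited1, a transcriptional co-activator gene of trabecular muscle, read 262, 217 and 383 in the AVC and 672, 3087 and 2490.2 in the LV (log2 difference -2.63 ± 0.54 SE, adjusted p = 0.0463), with the lowest LV value on replicate 1, and its call was lost with the 75th percentile scaling (adjusted p = 0.0626). Of 23 alternative settings, 5 kept the call of Cited1 and 18 lost it. The calls of Nppa and of Nppb were each kept in 19.

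The list as a whole followed replicate 1 of LV E10 closely. Its mean log2 level was 8.99 on that array against 9.91 and 9.97 on the other LV arrays, and 9.10, 8.30 and 8.65 on the AVC arrays. Gja5, a fast-conducting connexin gene of chambers, read 723, 784 and 738 in the AVC and 493, 2291 and 2332 in the LV, so LV replicate 1 lay below all AVC arrays and the other LV arrays far above them. Hopx, the homeodomain-only gene, read 5146, 2603 and 2908 in the AVC and 2933, 7139 and 6771 in the LV, again with LV replicate 1 among the AVC arrays. Without that array 5 members passed, all lower, with a median of -1.27, and without replicate 1 of both tissues 7 passed, with a median of -1.44.

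The promoters of both natriuretic peptide genes are shown because these peptide genes fell together and lie close to each other on chromosome 4. The 250 bases before each RefSeq start site (build GRCm38.p6) are printed 5′ to 3′ on the gene's strand, at chr4:148000472-148000721 (plus strand) for Nppa and chr4:147985650-147985899 (plus strand) for Nppb. Capitals mark exact matches, searched on both strands, to any of 5 motifs. The T-box letters were GGTGTGA. Those of the Wnt effectors TCF and LEF were CTTTGAA. The E-box that Snail and Twist type factors bind was CAGGTG. The letters of the Notch effector RBPJ were TGGGAA, and those of Gata factors were AGATAA.
Nppa: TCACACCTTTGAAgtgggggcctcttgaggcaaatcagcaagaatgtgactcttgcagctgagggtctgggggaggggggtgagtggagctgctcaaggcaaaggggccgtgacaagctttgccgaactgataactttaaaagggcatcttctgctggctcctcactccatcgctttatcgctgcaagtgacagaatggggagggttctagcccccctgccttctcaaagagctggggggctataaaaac
Nppb: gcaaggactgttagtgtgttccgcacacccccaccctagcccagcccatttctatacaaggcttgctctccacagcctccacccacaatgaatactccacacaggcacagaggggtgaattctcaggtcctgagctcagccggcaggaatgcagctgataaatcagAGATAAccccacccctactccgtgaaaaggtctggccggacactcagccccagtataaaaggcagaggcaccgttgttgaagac
The Nppa window opens with the T-box letters, on the opposite strand at bases 250 to 244 before the start, and they share 1 base with the TCF and LEF letters at bases 244 to 238. The Nppb window holds the Gata letters at bases 84 to 79. Of all 32851 RefSeq promoter windows of this length, 3.33% hold GGTGTGA, 4.46% CTTTGAA and 9.99% AGATAA. Among called genes with an entry, GGTGTGA stood in the windows of 3 of 38 lower genes (7.89%) and of 8 of 298 higher genes (2.68%). For CTTTGAA it was 1 lower gene (2.63%) and 7 higher (2.35%), and for AGATAA 5 lower (13.2%) and 24 higher (8.05%). The TGGGAA letters stood in 21.6% of all windows, in 23.6% of the measured genes, in 28.9% of the lower genes and in 22.5% of the higher. Those for CAGGTG, an E-box bound by Snail and Twist type factors, were 17.2%, 19.2%, 18.4% and 16.8%. These are matches of letters, and binding was not measured.

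Of 26 measured transcription factors of the cushions 9 rose, none fell and 17 did not pass, with a median of 1.13. The arrays of the tissues did not overlap for 19, all with the AVC above, against 14.4% of all genes with the AVC above. The list was chosen with earlier results of these data known, so this count describes it and is no test. Msx1, a homeobox gene of the endocardial transition, read 1148, 802 and 968 in the AVC and 124, 74.2 and 90.7 in the LV (log2 difference 3.35 ± 0.25 SE, adjusted p = 0.00102). Twist1, which holds cells in a mesenchymal state, read 1495, 1486 and 1701 in the AVC and 178, 191 and 228 in the LV (log2 difference 2.98 ± 0.27 SE, adjusted p = 0.00267). Snai1, the repressor of cadherin genes that starts the transition, read 284, 206 and 349 in the AVC and 74.0, 72.3 and 91.8 in the LV (log2 difference 1.79 ± 0.28 SE, adjusted p = 0.0196). The spread within each tissue was small for these genes beside the gap between tissues.

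The other 6 members that rose were Meox1, Id4, Id2, Nfatc1, Gata6 and Gata5. Meox1, a mesodermal homeobox gene, read 84.7, 223 and 217 on the AVC arrays and was not above background in the LV, which made it at least 6.41-fold higher (adjusted p = 0.013). Id4, an inhibitor of helix-loop-helix factors, read 344, 261 and 403 in the AVC and 71.8, 69.7 and 76.9 in the LV (log2 difference 2.19 ± 0.22 SE, adjusted p = 0.00459). Id2, a related inhibitor and BMP target, read 3944, 3659.7 and 3847 in the AVC and 1404, 1612 and 2032 in the LV (log2 difference 1.20 ± 0.13 SE, adjusted p = 0.00602). The groups were apart for each. Nfatc1, a factor of valve endocardium, read 507, 634 and 491 in the AVC and 173, 223 and 242 in the LV (log2 difference 1.36 ± 0.19 SE, adjusted p = 0.0138). Gata6, a zinc-finger factor of muscle and endocardium, read 4556, 5104 and 5104 in the AVC and 2419.9, 2461 and 3005 in the LV (log2 difference 0.91 ± 0.13 SE, adjusted p = 0.0155), and its relative Gata5 had a log2 difference of 1.28 ± 0.22 SE. The calls of Id2, Nfatc1 and Gata5 were lost with the 75th percentile scaling (adjusted p = 0.0627, 0.0623 and 0.0728).

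Several known cushion factors whose arrays were apart did not pass. Sox9, the factor of cushion mesenchyme and cartilage, read 2741, 2475 and 2996 in the AVC and 1196, 455 and 735 in the LV (adjusted p = 0.0629). Snai2 read 222, 379.9 and 424 in the AVC and 96.0, 110.1 and 102 in the LV (adjusted p = 0.117). The LV arrays of Sox9 spread more widely than its AVC arrays. Id1, a direct BMP target, read 1193, 1239 and 1322 in the AVC and 355, 688 and 778 in the LV (adjusted p = 0.075), and Msx2 was not above background in either tissue. When replicate 1 of LV E10 was left out, 12 members of the list passed, all higher.

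The Msx1 promoter window, chr5:37824586-37824835 on the minus strand (GRCm38.p6), is shown as that of the best known homeobox gene of the transition, with the E-box letters in capitals.
Msx1: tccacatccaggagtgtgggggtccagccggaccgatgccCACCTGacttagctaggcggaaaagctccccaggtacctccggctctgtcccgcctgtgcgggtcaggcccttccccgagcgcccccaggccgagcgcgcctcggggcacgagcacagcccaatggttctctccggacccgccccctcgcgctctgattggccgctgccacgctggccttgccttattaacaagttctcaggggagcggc
They lie on the opposite strand at bases 210 to 205 before the start. The same letters stand in 17.2% of all windows. By gene they stand in 19.2% of the 15237 measured genes with an entry, 16.8% of the 298 higher and 18.4% of the 38 lower ones. The windows of Axin2 and Twist1 held none of the 5 motifs.

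Has2 and 7 other genes of the hyaluronan and proteoglycan list were higher in the AVC on the deposited scale. Of 26 measured members of the hyaluronan and proteoglycan list 8 rose, none fell and 18 did not pass, with a median of 0.44 (0.18 with the 75th percentile scaling). With only the E10 arrays fitted 1 was called. Has2, the hyaluronan synthase of the heart, read 714, 316 and 389.7 in the AVC and 89.4, 45.8 and 58.6 in the LV (log2 difference 2.84 ± 0.37 SE, adjusted p = 0.0122). Hapln1, which links hyaluronan to proteoglycans, read 3094, 1937 and 2218 in the AVC and 761, 423 and 620.2 in the LV (log2 difference 2.02 ± 0.32 SE, adjusted p = 0.0223). Cd44, a hyaluronan receptor, read 528, 446 and 442 in the AVC and 178, 186 and 225 in the LV (log2 difference 1.27 ± 0.18 SE, adjusted p = 0.0142), with a mean over its 9 probes of 0.44 (adjusted p = 0.138). Replicate 1 of the AVC was the brightest array for Has2 and Hapln1.

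Genes of sulphation and chain synthesis were among the 8. Papss2, which makes the sulphate donor, read 1083, 1290.1 and 1242 in the AVC and 123, 83.3 and 105 in the LV (log2 difference 3.55 ± 0.33 SE, adjusted p = 0.00322). Its relative Papss1 had a far smaller difference of 0.45 ± 0.09 SE (adjusted p = 0.0441), and its call was lost with the 75th percentile scaling (0.62) and without replicate 1 of LV E10 (0.0751). Chst3, which sulphates chondroitin, read 62.4, 114 and 119.7 on the AVC arrays and was not above background in the LV, at least 3.79-fold higher (adjusted p = 0.0149). Xylt2, which starts glycosaminoglycan chains, differed by 0.81 ± 0.15 SE, and Gpc1, a cell-surface heparan sulphate proteoglycan, by 1.22 ± 0.17 SE. With the 75th percentile scaling 3 of the 8 calls remained, and Hapln1, Cd44, Gpc1 and Xylt2 had adjusted p of 0.0555, 0.058, 0.0635 and 0.176. Xylt2 was also lost without replicate 1 of LV E10 (0.057). Versican, Vcan, the main proteoglycan of the jelly, read 621, 518 and 498 in the AVC and 344, 138 and 204 in the LV (adjusted p = 0.144). The proteoglycan genes of fibrous matrix, Lum and Dcn, did not pass, and Lum read 45.1, 884 and 522 in the AVC and 132, 157 and 139 in the LV.

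BMP and TGF-beta components showed rises in few members. Of 24 BMP genes 3 rose, none fell and 21 did not pass, with a median of 0.62. Beside Bmp2 these were Bmper, a secreted modulator of BMP ligands, at 924, 502 and 632 in the AVC and 66.4, 58.4 and 65.7 in the LV (log2 difference 3.39 ± 0.26 SE, adjusted p = 0.00125), and Smad1. This signal transducer read 980.5, 978 and 1178 in the AVC and 619, 671 and 710.5 in the LV (log2 difference 0.65 ± 0.13 SE, adjusted p = 0.0427). The LV arrays of Bmper lay within a narrow range. Another probe of Smad1 had the opposite sign, the mean over its probes was 0.22, and its call was lost with the 75th percentile scaling (adjusted p = 0.276) and without replicate 1 of LV E10 (0.0729).

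Bmp4 read 645, 1841 and 1513 in the AVC and 627, 677 and 565 in the LV, with replicate 1 of the AVC at the LV level and the others well above it (adjusted p = 0.386). Bmp10, the growth factor of trabeculae, was not above background in the AVC and passed the background on 1 LV array, at 25.0. The inhibitory Smad6 read 402, 244 and 401 in the AVC and 169, 108 and 120.4 in the LV (adjusted p = 0.0934). Of 13 TGF-beta genes 2 rose, none fell and 11 did not pass, with a median of 0.54. Tgfb2 was one (log2 difference 2.0 ± 0.25 SE, adjusted p = 0.01). The other was the receptor gene Tgfbr1, at 2949.7, 2763 and 2913 in the AVC and 1791, 1629 and 1783 in the LV (log2 difference 0.73 ± 0.12 SE, adjusted p = 0.0237). The Tgfbr1 call was lost with the 75th percentile scaling (adjusted p = 0.0576). The co-receptor gene Tgfbr3 pointed the other way at 319, 244 and 215 in the AVC and 601, 383 and 556 in the LV (adjusted p = 0.0564).

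Of 34 measured ligands, receptors and feedback genes of the Wnt pathway 9 rose, none fell and 25 did not pass, with a median of 1.08 (0.66 with a floor of 32). Among ligands and ligand amplifiers these were Rspo3, Wnt2 and Wnt4. Wnt2, a ligand of cardiac mesoderm, read 643, 1250.0 and 1504 in the AVC and 331, 98.3 and 121 in the LV (log2 difference 2.76 ± 0.49 SE, adjusted p = 0.0315). Wnt4 read 96.1, 144 and 121 in the AVC and 56.8, 38.7 and 33.2 in the LV (log2 difference 1.5 ± 0.26 SE, adjusted p = 0.0281). For Wnt2 the LV arrays were uneven, with replicate 1 brighter than the others. The Frizzled receptor gene Fzd7 read 340.0, 513 and 565 in the AVC and 137, 58.3 and 92.1 in the LV (log2 difference 2.36 ± 0.44 SE, adjusted p = 0.0368), and Fzd1 read 207, 208 and 294 in the AVC and 79.2, 60.5 and 80.3 in the LV (log2 difference 1.68 ± 0.24 SE, adjusted p = 0.0149). Fzd10 read 73.6, 108 and 126 in the AVC, with no LV array above background. Fzd10 was at least 4.0-fold higher (adjusted p = 0.0469), and its call was lost with the 75th percentile scaling (0.0667).

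Feedback targets, which rise in cells that receive a canonical Wnt signal, were among the 9. Axin2 read 256, 321 and 322 in the AVC and 75.2, 57.7 and 46.9 in the LV (log2 difference 2.34 ± 0.28 SE, adjusted p = 0.00809). Nkd1 read 159, 216 and 271 in the AVC and 87.0, 97.5 and 78.6 in the LV (log2 difference 1.27 ± 0.24 SE, adjusted p = 0.0384). Nkd1 was lost with the 75th percentile scaling (adjusted p = 0.0597) and without replicate 1 of LV E10 (0.0607). Shisa2, which retains Frizzled and FGF receptors inside the cell, had the smallest adjusted p of the list, with intensities of 1076, 1138 and 1260.4 in the AVC and 69.6, 119 and 126 in the LV (log2 difference 3.51 ± 0.23 SE, adjusted p = 0.000894). Lef1, a nuclear mediator of the pathway, read 102, 37.0 and 55.5 in the AVC and 2.90, 6.24 and -6.88 in the LV (adjusted p = 0.0847). Wnt9b, a ligand of cushion endocardium, read 40.4, 110.2 and 94.9 in the AVC and -4.42, 13.8 and -0.317 in the LV (adjusted p = 0.0535). For both the AVC arrays lay above every LV array, and the LV arrays were below background.

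Of the Notch pathway a receptor gene passed. Of 16 members 1 rose, none fell and 15 did not pass, with a median of 0.76 that was 0.08 with a floor of 32 and 0.38 without replicate 1 of both tissues. The member that rose was the receptor gene Notch3, at 180.5, 191 and 178 in the AVC and 51.8, 44.8 and 65.4 in the LV (log2 difference 1.78 ± 0.15 SE, adjusted p = 0.00187). Hey1, the Notch target of AVC myocardium, read 2125, 1131 and 1126 in the AVC and 747, 674 and 820.2 in the LV (adjusted p = 0.156). Notch1, the endocardial receptor, read 511, 628 and 532 in the AVC and 443, 222 and 348 in the LV (adjusted p = 0.206). For both every AVC array lay above every LV array. Hey2, the chamber counterpart of Hey1, read 427, 228 and 325 in the AVC and 268, 502 and 511 in the LV, and its arrays overlapped between the tissues.

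Receptors and binding proteins for growth factors included 4 that rose among 30, none that fell and 26 that did not pass, with a median of 0.67 (0.38 with a floor of 32). Pdgfra, the receptor of cushion and epicardial mesenchyme, read 1191, 1833 and 1772 in the AVC and 339.6, 274 and 315 in the LV (log2 difference 2.35 ± 0.27 SE, adjusted p = 0.00683). The mean over its probes gave 1.27 (adjusted p = 0.372). Igfbp7, a matrix-bound IGF-binding protein, read 3631, 3192 and 4018 in the AVC and 489, 689.6 and 785 in the LV (log2 difference 2.49 ± 0.32 SE, adjusted p = 0.0107). The mean over its 5 probes gave 0.50, still past the test, and without replicate 3 of AVC E10 the adjusted p was 0.0511. Igfbp5 was among the brightest genes called, at 18613, 16746 and 17036 in the AVC and 8009, 6623 and 6905 in the LV (log2 difference 1.29 ± 0.25 SE, adjusted p = 0.0388). Fgfr2 read 1475, 1261 and 1269 in the AVC and 459.7, 351 and 387 in the LV (log2 difference 1.75 ± 0.27 SE, adjusted p = 0.0193). The arrays of the tissues were clearly apart for all 4. The neuregulin receptor gene Erbb3, known from cushion mesenchyme, was not above background, and Igf1 read 295, 616 and 518 in the AVC and 118, 157 and 176 in the LV (adjusted p = 0.09).

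Of 21 guidance cues and receptors 3 rose, none fell and 18 did not pass, and their median was 0.74 (0.49 with a floor of 32). Flrt3, a membrane protein that binds FGF and Unc5 receptors, read 1299, 1383 and 1522 in the AVC and 332, 379 and 612 in the LV (log2 difference 1.72 ± 0.28 SE, adjusted p = 0.023). Flrt2 read 229, 331 and 355 in the AVC and 143, 117 and 163 in the LV, and lost its call with the 75th percentile scaling (adjusted p = 0.115) and without replicate 1 of LV E10 (0.0544). Cxcr4, the chemokine receptor, read 126, 139.7 and 181 in the AVC and 15.9, 24.9 and 27.2 in the LV (log2 difference 2.74 ± 0.37 SE, adjusted p = 0.0132). Its ligand gene Cxcl12 pointed the other way at 406, 748 and 998 in the AVC and 721, 1225 and 1402 in the LV, with overlapping arrays (adjusted p = 0.594).

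Of 24 adhesion and planar polarity genes 4 rose and 20 did not pass, and their median was 0.59 (0.32 with a floor of 32). Cav1, the coat protein of caveolae, read 3631, 4292 and 3519 in the AVC and 319, 798 and 722 in the LV (log2 difference 2.74 ± 0.32 SE, adjusted p = 0.00737). Ncam1, a neural and muscle adhesion molecule, read 752, 868 and 816 in the AVC and 82.9, 126 and 119.7 in the LV (log2 difference 2.91 ± 0.51 SE, adjusted p = 0.0291), with a mean over its probes of 1.45 (adjusted p = 0.102). Dchs1, an atypical cadherin of planar polarity with a known part in mitral valve shape, read 85.9, 161 and 113 in the AVC and 22.1, 47.4 and 47.2 in the LV (log2 difference 1.66 ± 0.33 SE, adjusted p = 0.0449), with a mean over its probes of 0.84 (adjusted p = 0.087). The groups were apart for these 3 genes. Vangl2, a core polarity protein, had the smallest difference of the 4, 0.49 ± 0.10 SE. With the 75th percentile scaling the Cav1 call alone remained of these 4, and Ncam1, Dchs1 and Vangl2 had adjusted p of 0.0728, 0.154 and 0.27. Without replicate 1 of LV E10, Ncam1 and Vangl2 had 0.0515 and 0.0729. VE-cadherin, Cdh5, whose loss from the membrane lets endocardial cells part, read 406, 522 and 473 in the AVC and 437, 302 and 407 in the LV, with overlapping arrays. N-cadherin, Cdh2, lay close to background at 51.4, 26.2 and 43.2 in the AVC and 27.1, 31.4 and 44.4 in the LV.

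Few genes of structural matrix passed. Of 21 collagens 1 rose, 1 fell and 19 did not pass, with a median of 0.78. Col9a3, a chain of cartilage-type collagen, read 84.2, 61.7 and 58.4 in the AVC and 14.5, 12.6 and 24.1 in the LV (log2 difference 2.04 ± 0.25 SE, adjusted p = 0.0092). All but 1 of its LV values were below background, and the difference was 1.07 with a floor of 32. With the mean of all probes it was 0.83 (adjusted p = 0.463), and 0 collagens were called. Col23a1, a transmembrane collagen, read 121, 179 and 131 in the AVC and 322, 297 and 388 in the LV (log2 difference -1.24 ± 0.16 SE, adjusted p = 0.0126). Col1a1, the main fibrillar collagen, read 100.4, 621 and 413 in the AVC and 222, 81.6 and 125 in the LV, so that AVC replicate 1 lay among the LV arrays. Col2a1, the cartilage collagen, read 1766, 474 and 532 in the AVC and 256, 167 and 153 in the LV (adjusted p = 0.0847). In the list of matricellular and elastic matrix 1 of 25 members rose, with a median of 0.55. It was Ltbp1, a latent TGF-beta binding protein, at 528, 657 and 521 in the AVC and 234, 147 and 161 in the LV (log2 difference 1.68 ± 0.23 SE, adjusted p = 0.014). Another probe of Ltbp1 had the opposite sign, and the mean over its probes gave -0.31. Periostin, Postn, the marker of more mature cushions, was near background in both tissues at -4.37, 26.4 and 29.4 in the AVC and 17.4, -4.38 and 28.9 in the LV.

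Matrix proteases and their inhibitors rose in 3 of 18 cases, with none lower and a median of 0.75. Mmp14, a membrane-bound metalloprotease, read 2038, 2834 and 2721 in the AVC and 1190.4, 978 and 1392 in the LV (log2 difference 1.09 ± 0.19 SE, adjusted p = 0.0304). Reck, an inhibitor of such enzymes, read 243, 343 and 256 in the AVC and 174, 163 and 154 in the LV (log2 difference 0.76 ± 0.13 SE, adjusted p = 0.0291), with a mean over its probes of 0.49 (adjusted p = 0.772). Both calls were lost with the 75th percentile scaling (adjusted p = 0.0864 and 0.194). Adam23, which lacks protease activity and binds integrins, read 256, 201 and 274 on the AVC arrays and was not above background in the LV, at least 9.66-fold higher (adjusted p = 0.0276).

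The endocardial and endothelial list held genes that rose and genes that fell. Of 35 members 3 rose, 4 fell and 28 did not pass, with a median of 0.13 that was 0.00 under quantile normalization and -0.06 with the 75th percentile scaling. The pan-endothelial genes Cdh5, Pecam1 and Tek were present in both tissues, and Tek read 1804, 2061 and 1969 in the AVC and 1202, 1336 and 1434 in the LV (adjusted p = 0.0727). The members that rose were Nfatc1, the endodermal and endothelial factor Sox17, at 92.2, 99.1 and 142 in the AVC and 36.7, 31.7 and 38.6 in the LV (log2 difference 1.62 ± 0.31 SE, adjusted p = 0.0379), and the flow-responsive factor Klf4, at 171, 183 and 267 in the AVC and 69.7, 73.3 and 75.2 in the LV (log2 difference 1.48 ± 0.22 SE, adjusted p = 0.0165). All 3 were lost with the 75th percentile scaling, with adjusted p of 0.0623, 0.0969 and 0.0647, and Sox17 also without replicate 1 of LV E10 (0.0571).

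The members that fell were Clec4g, Tmem100, Gja4 and Plvap. Clec4g, a lectin of sinusoidal endothelium, read 140.1, 125 and 99.5 in the AVC and 472, 449.9 and 619 in the LV (log2 difference -2.08 ± 0.22 SE, adjusted p = 0.00548), and the mean over both its probes was -1.11, still past the test. Tmem100, a target of ALK1 signalling in endothelium, read 189.8, 178 and 142 in the AVC and 420.2, 822 and 763 in the LV (log2 difference -1.93 ± 0.27 SE, adjusted p = 0.0142). Gja4, an arterial connexin, read 459, 428 and 413 in the AVC and 619, 1037 and 1135 in the LV (log2 difference -1.06 ± 0.20 SE, adjusted p = 0.0375). Plvap, the diaphragm protein of endothelial fenestrae, read 1093, 1129.7 and 1092 in the AVC and 1727, 1633 and 1771 in the LV (log2 difference -0.63 ± 0.11 SE, adjusted p = 0.0288). For each gene all LV arrays lay above all AVC arrays. These 4 also passed with the 75th percentile scaling and without replicate 1 of LV E10. Without replicate 1 of both tissues the adjusted p of Plvap was 0.0958. Emcn, endomucin, read 1080.5, 1708 and 1676 in the AVC and 2149, 3560.3 and 3601 in the LV (adjusted p = 0.166).

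Genes of atrium and sinus venosus rose in 3 of 16 cases and fell in 1, Nppa, with a median of 0.56. Shox2, a homeobox gene of pacemaker tissue, read 55.7, 549 and 553 on the AVC arrays and was not above background in the LV. It was at least 10.3-fold higher (adjusted p = 0.0375), and its call was lost with the 75th percentile scaling (0.0576) and without replicate 1 of LV E10 (0.0599). Vsnl1, a calcium sensor, read 412, 1431 and 1602 in the AVC and 53.6, 29.9 and 22.2 in the LV (log2 difference 4.90 ± 0.52 SE, adjusted p = 0.00548). AVC replicate 1 was the lowest AVC array for Shox2, Vsnl1 and Sln alike. Stard10, a lipid transfer protein, read 1431, 1566 and 1086 in the AVC and 242, 268 and 242 in the LV (log2 difference 2.43 ± 0.19 SE, adjusted p = 0.00127). The shared atrial genes Myl7 and Myl4 overlapped between the tissues, and Myl4 read 22673, 32704 and 23896 in the AVC and 32353, 22330.0 and 22142 in the LV.

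Of 24 genes best known from neurons 7 were higher in the AVC and none lower, with a median of 1.07 (0.35 with a floor of 32). Gal, the neuropeptide galanin, read 1843, 1503 and 1645 in the AVC and 167, 186 and 212 in the LV (log2 difference 3.15 ± 0.28 SE, adjusted p = 0.00267). Pvalb, a calcium-binding protein, read 264, 261 and 217 on the AVC arrays and was not above background in the LV, at least 9.86-fold higher (adjusted p = 0.00127). Uchl1, a ubiquitin hydrolase, read 584, 532 and 545 in the AVC and 158, 321 and 276 in the LV (log2 difference 1.20 ± 0.24 SE, adjusted p = 0.0444) and was lost with the 75th percentile scaling (adjusted p = 0.219). Nnat, neuronatin, the single one of 17 imprinted genes that rose, read 346, 438 and 426 in the AVC and 161, 171 and 200.4 in the LV (log2 difference 1.18 ± 0.14 SE, adjusted p = 0.00819). The others were Ncam1, Shisa2 and Vsnl1, given above. Of neurofilament and synaptic genes, Nefl and Snap25 were above background on none of the 6 arrays. Cplx2 read 20.6, 26.8 and 17.4 in the AVC. Other genes known from neurons, picked after their values were seen, lay higher on every AVC array than on any LV array. Ap3b2 read 623, 320 and 272 in the AVC and 99.8, 44.4 and 47.96 in the LV (adjusted p = 0.0303). Rtn1 read 912, 746 and 1216 in the AVC and 259, 347 and 438 in the LV. Nptx2 was at least 1.93-fold higher (adjusted p = 0.0449, or 0.0644 with the 75th percentile scaling). Whether neurons were present was not tested. Of the neural crest markers Sox10 read 20.2, 41.4 and 47.7 in the AVC and -2.23, -0.104 and 4.66 in the LV, above background on 2 AVC arrays, and Foxd3 was above background on none. Elavl4 was the single member of 17 neural crest and neural genes that rose, at 44.5, 29.98 and 33.0 in the AVC and 12.7, 13.3 and 9.38 in the LV (adjusted p = 0.0223). No LV value of this probe was above background, and with a floor of 32 the difference was 0.17 (adjusted p = 0.772).

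**Figure D3:**
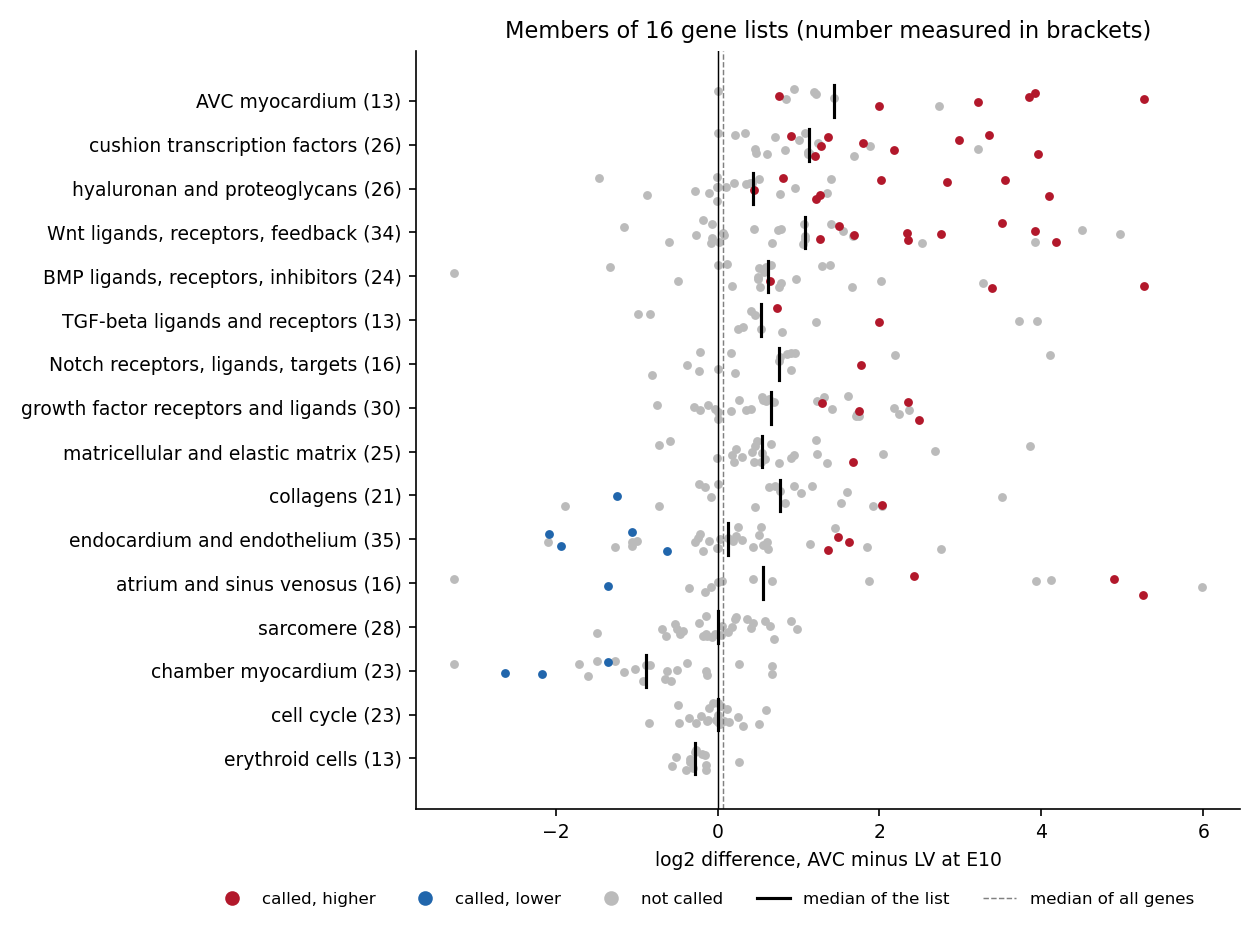
Log2 difference of AVC minus LV at E10 for the members of 16 gene lists, with the number measured in brackets. Red and blue points passed the test, black bars are list medians and the dashed line is the median of all genes (0.07). The medians run from 1.44 for AVC myocardium to -0.89 for chamber myocardium.

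No sarcomere gene passed the limma test. Of 28, 0 were called and 6 had an unadjusted p under 0.05, with a median of 0.01 that was -0.25 with the 75th percentile scaling. Over all 19057 genes 2650 had such a p, and the list counts below are to be read beside that share. With replicate 1 of LV E10 left out, 2 passed, both lower. Myh6, the alpha myosin heavy chain, read 15295, 9596 and 9329 in the AVC and 3932, 7389.8 and 6172 in the LV (adjusted p = 0.201). Myh7, the beta chain, read 636, 343 and 552 in the AVC and 931, 1721 and 1659 in the LV (adjusted p = 0.303). Every AVC array lay above the LV arrays for Myh6 and below them for Myh7. Of 26 genes of calcium handling and ion channels 1 rose, Gjc1, and 1 fell, Gja4. The calcium pump gene Atp2a2 read 15253, 12071 and 11513 in the AVC and 10263, 9587 and 9186 in the LV (adjusted p = 0.0971). Its inhibitor phospholamban, Pln, read 1411, 747 and 1299.6 in the AVC and 1283, 3084 and 3855 in the LV (adjusted p = 0.276), with LV replicate 1 among the AVC arrays. Kcna5, an atrial potassium channel, read 228, 78.8 and 119 in the AVC and 7.53, 9.12 and 8.81 in the LV (adjusted p = 0.0727), with every LV array below background.

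No gene of proliferation or energy metabolism passed either. Of 23 cell cycle genes 0 were called by limma and 3 had an unadjusted p under 0.05, with a median of 0.00. Top2a, the topoisomerase of dividing cells, read 2038, 1836 and 1618 in the AVC and 2110.4, 1562 and 1430.3 in the LV. The same count of 0 held for 22 genes of the respiratory chain (median -0.17), 22 of fatty acid oxidation and the citrate cycle (-0.21) and 21 of glycolysis and hypoxia (-0.04), with 2, 4 and 3 at an unadjusted p under 0.05. In the first pair of these energy lists the LV arrays split, with replicate 1 lowest. The mean log2 level of the respiratory chain was 11.11 on that array, 11.94 and 12.02 on the other LV arrays and 11.43 to 11.56 on the AVC arrays. Without it, 5 respiratory chain genes and 3 of fatty acid oxidation and the citrate cycle passed, all lower in the AVC. Among called genes outside the lists, the lower ones included some that encode mitochondrial proteins. Slc25a13, an aspartate-glutamate carrier, read 138, 87.3 and 129 in the AVC and 189, 273 and 307 in the LV (log2 difference -1.12 ± 0.21 SE, adjusted p = 0.0369). Prdx3, a peroxiredoxin, read 1608, 1487 and 1448 in the AVC and 2668, 2058 and 2218 in the LV (log2 difference -0.60 ± 0.12 SE, adjusted p = 0.0441). Mrps28, a ribosomal protein, read 1376, 1267 and 1297 in the AVC and 1715, 1978 and 2539.8 in the LV (log2 difference -0.64 ± 0.13 SE, adjusted p = 0.0471). The LV arrays lay above the AVC arrays for all 3, and Prdx3 and Mrps28 were picked after their values were seen. Prdx3 was lost without replicate 1 of LV E10 (adjusted p = 0.0611), and Mrps28 with the 75th percentile scaling (0.058).

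Blood and leukocyte genes varied with the array. Of 13 erythroid genes 0 were called by limma and 0 had an unadjusted p under 0.05, and the median of -0.28 became 0.19 without replicate 1 of LV E10. The red cell anion exchanger Slc4a1 read 5692, 22895 and 14239.7 in the AVC and 32694, 16488 and 7748 in the LV, with the lowest value on AVC replicate 1 and the highest on LV replicate 1. Of 15 macrophage and leukocyte genes 0 were called by limma and 7 had an unadjusted p under 0.05, with a median of 1.60 (1.06 with a floor of 32). Their mean log2 level was 6.43 and 6.26 on AVC replicates 2 and 3, but 3.83 on AVC replicate 1 and 3.92 to 4.54 on the LV arrays. C1qc, a complement gene of macrophages, read 14.1, 246 and 161 in the AVC and 11.7, 20.5 and 16.3 in the LV. Csf1r, the receptor for macrophage growth factor, read 22.6, 133 and 128 in the AVC and 31.5, 30.6 and 17.8 in the LV. Ptprc, the common leukocyte antigen, was above background on none of the 6 arrays. Without replicate 1 of both tissues 4 macrophage genes passed as higher and 1 as lower. The part of these cells in other differences was not tested.

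Of the remaining lists, 18 epicardial and 14 second heart field genes had 0 calls by limma, 0 and 3 members at an unadjusted p under 0.05, and medians of -0.08 and 1.10. The latter was 0.17 with a floor of 32, and 8 of the 14 second heart field genes were above background on any array of E10. Tcf21, a factor of epicardium and fibroblast precursors, read 1166, 1979 and 1778 in the AVC and 478, 1117 and 1370.1 in the LV, and its arrays overlapped between the tissues. Isl1, the second heart field factor, read 51.2, 153 and 265 in the AVC and 54.8, 0.208 and 7.26 in the LV (adjusted p = 0.16). Of 14 genes of the hedgehog pathway and cilia 1 rose, the ciliary motor gene Kif3a, at 547, 529 and 514 in the AVC and 291, 317 and 289 in the LV (log2 difference 0.83 ± 0.14 SE, adjusted p = 0.026). Of 15 retinoic acid genes 1 rose, the receptor gene Rarg, at 44.998, 69.3 and 65.1 in the AVC and 30.4, 12.2 and 12.6 in the LV (log2 difference 1.81 ± 0.35 SE, adjusted p = 0.039). A pair of its LV values lay below background, and with a floor of 32 the difference was 0.88. The mean over its 3 probes did not pass (adjusted p = 0.0719). Kif3a and Rarg were lost with the 75th percentile scaling (adjusted p = 0.219 and 0.0597). The 20 endoderm genes and the 18 immediate early and heat shock genes had 0 calls by limma, and 0 and 2 members at an unadjusted p under 0.05. Of 18 germline genes 1 fell, Rhox5, a homeobox gene of the X chromosome, at 497, 379 and 473 in the AVC and 1277, 776 and 1006 in the LV (log2 difference -1.16 ± 0.23 SE, adjusted p = 0.0444), and without replicate 1 of LV E10 its adjusted p was 0.0708.

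**Figure D4:**
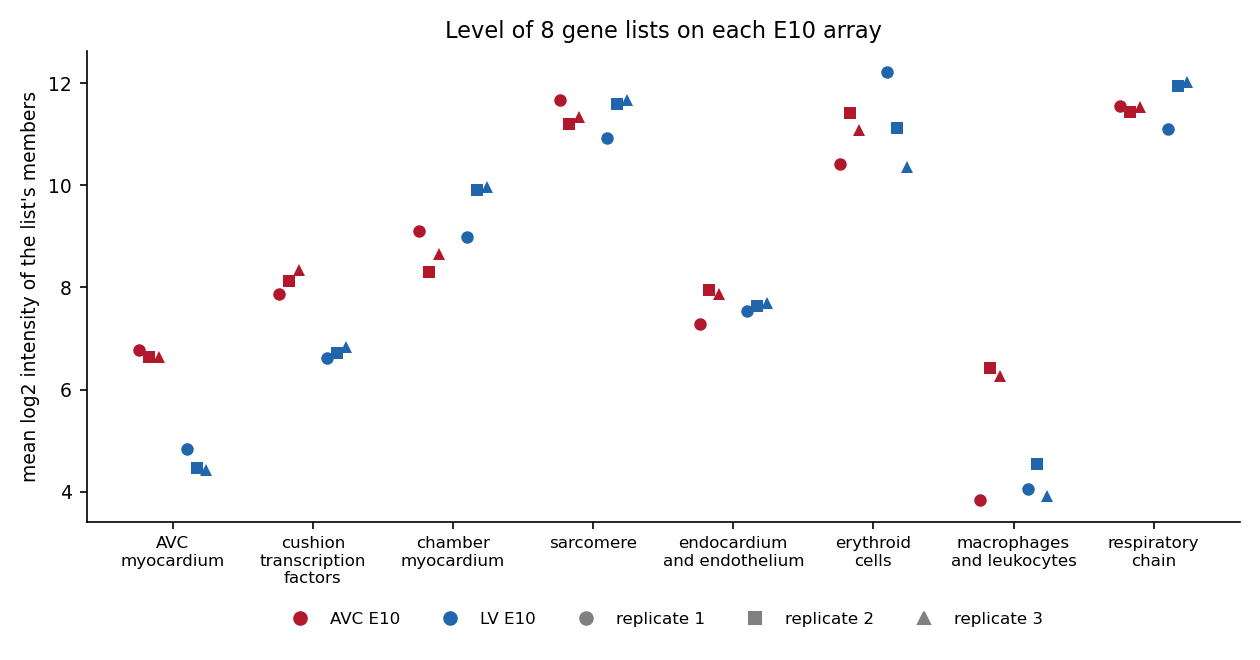
Mean log2 intensity of the members of 8 gene lists on each of the 6 arrays of E10, with AVC arrays in red and LV arrays in blue and the replicate given by the symbol. AVC myocardium and cushion genes are apart between the tissues on every array. Chamber, erythroid and respiratory chain genes place replicate 1 of LV E10 away from its group, and macrophage genes place AVC replicate 1 (3.83) away from the other AVC arrays (6.43 and 6.26).

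In all, the 34 lists held 652 distinct measured genes, of which 63 were higher and 9 lower, or 11% against 2.30% of all genes. They were chosen for this tissue with earlier results of these data known, so that this share describes the lists and is no test of them.

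The largest rises of the whole array lay partly outside the lists. Of the 15 largest, 13 were above background on no LV array, so that their size is a bound. Chit1, a chitinase, read 195, 95.3 and 136 on the AVC arrays and was at least 5.45-fold higher (adjusted p = 0.0226). Car3, a carbonic anhydrase of muscle, read 226, 189 and 289.7 and was at least 9.25-fold higher (adjusted p = 0.0279). Jam2, a junctional adhesion molecule, read 65.7, 127 and 141 in the AVC and 4.53, 5.81 and 6.08 in the LV, at least 4.22-fold higher (adjusted p = 0.014). Esr1, the oestrogen receptor alpha, read 43.1, 28.5 and 43.1 in the AVC and 4.41, -7.97 and -2.80 in the LV, at least 1.5-fold higher (adjusted p = 0.0331). No LV array reached background for any of these genes.

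Among genes measured in both tissues, Ptprb, the endothelial tyrosine phosphatase, read 746, 735 and 697 in the AVC and 159, 89.2 and 99.998 in the LV (log2 difference 2.69 ± 0.26 SE, adjusted p = 0.00336). Aqp1, a water channel of endothelium and red cells, read 813, 2539 and 2425 in the AVC and 222, 320.2 and 310.2 in the LV (log2 difference 2.61 ± 0.46 SE, adjusted p = 0.0291), with AVC replicate 1 well below the others. Its call was lost with the 75th percentile scaling (adjusted p = 0.0694) and without replicate 1 of LV E10 (0.0515). Gata3, a zinc-finger factor, read 162, 131 and 185 in the AVC and 44.1, 26.3 and 24.1 in the LV (log2 difference 2.37 ± 0.25 SE, adjusted p = 0.00508). Ptprb, Aqp1 and Gata3 are named after their values were seen.

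Of the 15 largest falls 4 were of genes above background on no AVC array. Mal, a proteolipid of membrane sorting, was not above background in the AVC and read 52.7, 41.4 and 30.3 on the LV arrays, at least 1.64-fold higher there (adjusted p = 0.0127). Bcl2l15, of the Bcl2 family, read 54.9, 67.6 and 78.9 in the LV, at least 2.70-fold higher than in the AVC (adjusted p = 0.0304). Prr15, a proline-rich protein, read 61.6, 127 and 113 in the AVC and 343, 468 and 627 in the LV (log2 difference -2.28 ± 0.32 SE, adjusted p = 0.014). Ripk4, a kinase of epithelial differentiation, read 56.3, 21.2 and 41.0 in the AVC and 229, 125 and 161 in the LV (log2 difference -2.18 ± 0.38 SE, adjusted p = 0.0291). Mrap, an accessory protein of melanocortin receptors, read 271, 150.1 and 202 in the AVC and 641, 586 and 638 in the LV (log2 difference -1.62 ± 0.23 SE, adjusted p = 0.0142). The LV arrays of Mrap lay within a narrow range, all above the AVC arrays.

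The comparison at E9 gives the same contrast before the cushions fill. At that age 195 genes were called (1.02% of those tested), of which 163 were higher (0.855%) and 32 lower (0.168%) in the AVC, and 103 genes were called at both ages, all with the same sign. These were 23.5% of the calls at E10 and 52.8% of those at E9. A call at one age alone does not show that the ages differ, so the difference between them was tested. It passed for 6 genes (0.0315%), 4 with a positive sign (0.0210%) and 2 with a negative one (0.0105%), or for 10 to 43 when any 1 of the 12 arrays was left out, with 898 at an unadjusted p under 0.05, and 4 of the 335 genes called at E10 alone were among the 6.

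Ryr3, an intracellular calcium release channel, was the sole gene of the 6 that was above background on any array. It read 49.9, 27.3 and 52.6 on the AVC arrays of E10, -6.62, 1.80 and 1.78 on the LV arrays of E10, 1.72, -0.114 and 0.0357 on the AVC arrays of E9 and -7.59, -6.95 and -4.61 on the LV arrays of E9. Only the AVC arrays of E10 stood above background, where its level was at least 1.66-fold that of the LV. The fitted difference between the ages, 4.56 (adjusted p = 0.0251), therefore rests on the floor of 1 and is no measure of size. It was 1.38 with a floor of 16 (adjusted p = 0.491) and 0.45 with one of 32, and the call was also lost when dim genes were removed (adjusted p = 0.0784).

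Other genes with small unadjusted p did not pass. Enc1, a kelch protein that binds actin, read 1016, 736 and 802 in the AVC and 211, 265 and 284 in the LV at E10, and 899, 674 and 571 in the AVC and 684, 686 and 737 in the LV at E9 (adjusted p of the difference between ages 0.203). Fcmr, an IgM receptor, read 217, 166 and 147 in the AVC at E10, with no LV array of that age above background, and 166, 314 and 155 in the AVC and 188, 108 and 182 in the LV at E9 (adjusted p = 0.203). Tpst1, a tyrosine sulphotransferase, read 723, 676 and 673 in the AVC and 441, 428 and 454 in the LV at E10 and 507, 459.9 and 486 against 472, 439.6 and 432 at E9 (adjusted p = 0.0973). For these 3 genes the tissues were apart at E10 and overlapped at E9.

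Cushion genes did not pass the test of the difference between ages. For Msx1 the log2 differences were 2.03 at E9 and 3.35 at E10, for Twist1 1.61 and 2.98, for Papss2 1.01 and 3.55, and for Has2 1.89 and 2.84. The adjusted p of the difference between ages was 0.655, 0.674, 0.35 and 0.937. Dchs1 had the reverse order, 5.48 at E9 and 1.66 at E10 (adjusted p = 0.0791). Its values at E9 were 54.2, 49.1 and 35.7 in the AVC and 1.06, -3.36 and -1.74 in the LV, where 2 arrays sat at the floor of 1. With floors of 16 and 32 the difference between ages, -3.83 with the floor of 1, was 0.15 and 0.97.

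**Figure D5:**
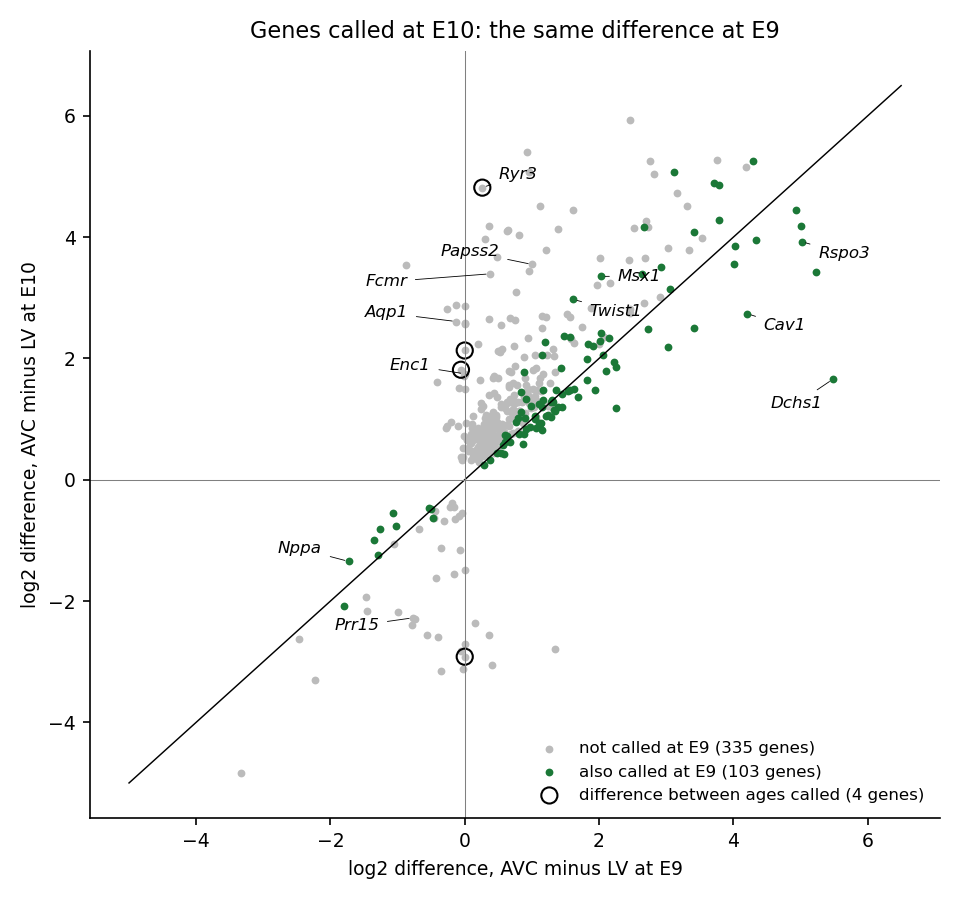
Log2 difference of AVC minus LV at E9 (horizontal axis) and at E10 (vertical axis) for the 438 genes called at E10. Green points were also called at E9 (103 genes), circles mark the 4 genes whose difference between ages passed, and the line marks equal differences. Of the 4, Ryr3 is the one above background.

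Within the AVC itself, 105 genes differed between E10 and E9 (0.551% of those tested), with 82 higher (0.430%) and 23 lower (0.121%) at E10. This comparison uses the same AVC arrays of E10, so its values are set beside the tissue differences and not counted as support for them. Papss2 rose from 324, 210.5 and 125 at E9 to 1083, 1290.1 and 1242 at E10 (log2 difference 2.55, adjusted p = 0.0265). Col3a1, a fibrillar collagen, rose from 359, 295 and 318 to 771, 1472 and 1633 (adjusted p = 0.0353), and Col16a1 from 91.1, 43.9 and 88.5 to 403, 1049.6 and 832 (adjusted p = 0.0299). For all 3 genes the arrays of the ages were apart.

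Other list members differed between the ages as well. Flrt2 went from 138, 119 and 117 to 229, 331 and 355 (adjusted p = 0.0457), Ets1, a factor of endothelium and crest, from 546, 609 and 374 to 1062, 1265 and 1209 (adjusted p = 0.0353), and C1qc from -3.17, 1.98 and -9.50 to 14.1, 246 and 161 (adjusted p = 0.0438), with AVC replicate 1 of E10 below background like all arrays of E9. Pvalb fell from 1052, 1795 and 1343 to 264, 261 and 217 (adjusted p = 0.0457). Tnnc2, the fast skeletal troponin C, was above background on all AVC arrays of E9 at 63.6, 80.0 and 131 and on no array of E10 (adjusted p = 0.00119). Twist1 read 580.2, 890.2 and 400.0 at E9 and 1495, 1486 and 1701 at E10 (adjusted p = 0.0676), and Sox9 2939, 2276 and 1942 and 2741, 2475 and 2996 (adjusted p = 1). The count of genes that differed between the ages was 465 without replicate 1 of AVC E10, 311 without replicate 1 of LV E10, which enters through the shared spread, and 999 without both. Without replicate 2 or 3 of AVC E10 it was 28 and 25.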

How the data were processed

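RNA from the AVC and the primary ventricle was hybridised to Illumina Mouse WG-6 v2 chips, with 3 arrays in each of 4 groups (12 arrays). The authors deposited one linear intensity per probe, background-subtracted and scaled so that every array had the same mean over all probes. Of these values 34.7% were below 0. In the published methods the arrays were analysed in GeneSpring GX after signals under background were dropped, whereas the deposited table still holds values below 0. The sources used here do not state which program wrote the table or which chip held each sample, and a chip effect was not tested. Groups came from the sample labels.

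Values under 1 were set to 1 and log2 was taken. Of the probes, 34885 carried 1 gene symbol in the platform annotation, 18 several and 10378 none, and each of 19057 genes was represented by the probe that was brightest on average across all 12 arrays. All 4 groups were fitted together with limma 3.58.1 (R 4.3.3, two-sided moderated test, 8 residual degrees of freedom), with Benjamini-Hochberg adjustment across all genes. The contrasts were AVC against LV at E10, the same at E9, the difference between these, and E10 against E9 in the AVC. A fold is 2 to the power of the log2 difference. For a gene above background on no array of a group, with all its probes, an "at least" fold is given, computed from the bright group's mean against the lowest signal above background on the dim arrays. The number of arrays limits the precision, and the fit was tested on simulated data.

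Named were the 15 largest differences each way among called genes above background on all arrays of the brighter group, members of 34 gene lists, and the 10 genes with the smallest p for each age contrast. The gene lists and the members named were chosen with earlier results of these data known. Lists are described by counts and medians, without a test. Alternatives covered the floor (16 or 32), scaling, dim genes, probe choice, variance model, array weights, a replicate block, the arrays fitted, the methods' thresholds (applied here to the unadjusted limma p, since no adjustment is stated) and each array left out. Leaving out replicate 1 of both E10 groups was chosen after seeing the data. Promoters are those of RefSeq, build GRCm38.p6. Matplotlib 3.10.9 drew the figures.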

Additional observations from a re-analysis of the deposited data

Results flagged for a closer look

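The AVC minus LV log2 difference itself differed between E10 and E9 for 6 genes by the limma interaction test. Ryr3 had a fitted difference of 4.56, set by the floor (adjusted p = 0.0251), and was above background on the 3 AVC arrays of E10 alone among the 12. The other 5 were above background on none of the 12 arrays: Crybb2 with -3.22 (adjusted p = 2.94e-05), Olfr1445 with -2.92 (adjusted p = 0.0211), Bpifb9a with 2.13 (adjusted p = 0.0205), Cyp2t4 with 1.87 (adjusted p = 0.000869) and Olfr1076 with 1.61 (adjusted p = 0.0103). These 5 differences were set by the floor as well. For all of the 5 but Cyp2t4, every value outside 1 group of 3 arrays was set to 1, which left no spread there. The moderated variance had 0.459 prior degrees of freedom beside 8 residual ones, so it added little to such a small spread. Where only genes above background on all arrays of a group were tested, none of the 6 remained called.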

How the results depend on the processing

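For AVC against LV at E10 (438 calls, 392 higher and 46 lower), quantile normalization gave 268 calls (186 higher, 82 lower), scaling to a common 75th percentile 283 (148 and 135), the mean of all probes of a gene 276 (245 higher), fitting only the E10 arrays 72 (70 and 2), and the methods' thresholds of 4-fold and 0.01, applied here to the unadjusted p, 269 (224 higher). A floor of 32 left 24 lower. Array weights, which ran from 0.124 for LV E10 replicate 1 to 6.06 for LV E10 replicate 2 and did not converge, gave 6047 (4582 and 1465). Leaving out 1 array gave 97 to 730 calls, 84 to 563 higher and 13 to 167 lower, and leaving out replicate 1 of both E10 groups 690 (498 and 192). For the difference between ages (6 calls), removing dim genes left 0 with limma, array weights gave 478, leaving out 1 array 10 to 43, and leaving out both 118. For E10 against E9 in the AVC (105 calls), a floor of 16 gave 182, quantile normalization 63, removing dim genes 201, array weights 3733, only the AVC arrays 21, leaving out 1 array 25 to 465, and leaving out both 999.

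Of the 438 calls, 212 remained under quantile normalization, 188 with the 75th percentile scaling, where 1 changed sign, 225 with the mean of all probes, where 11 changed sign, and 55 with only the E10 arrays. The mean of all probes turned Ltbp1 to -0.31, and floors of 16 and 32 turned the difference between ages of Dchs1 from -3.83 to 0.15 and 0.97. The cause of these changes was not tested, apart from the smaller number of arrays in some fits.

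Same-numbered AVC and LV arrays of E10 had correlations of their deviations of -0.0976, 0.103 and 0.121, so the numbers were not taken to pair the samples. With the number as a replicate block the counts were 419, 3 and 66 for the 3 comparisons.

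A simulated log2 difference of 0.5 between the tissues at E10 was called for 2% of 50 genes and one of 3 for 96%. Of the 438 called genes 32 were above background on none of the 6 arrays, and 8 had another detected probe of the opposite sign.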

Other observations

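Among probes with no gene symbol or several in the platform annotation, 24 differed between AVC and LV at E10, 21 of them higher in the AVC. At an unadjusted limma p under 0.05 there were 682. They are not named here.

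Called genes whose detected probes pointed in opposite directions were Napa, Zfp60, Csnk2a1, Nme7, Smad1, Ptprk, Ltbp1 and Tfpt, out of 141 called genes with another detected probe.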
